A study of Mus musculus with 15 samples.

Results

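The genes described here are 8 regulators of surface epithelium whose loss or mutation is linked to clefting of the face or to related ectodermal disorders. They are Trp63, Grhl2, Grhl3, Esrp1, Esrp2, Nectin1, Nectin4 and Ripk4, taken by name from a table of 54232 genes, and all 8 were found and passed the filter on low counts. Whole secondary palate of wild-type (WT) mice was profiled by bulk RNA sequencing on embryonic days E13.5 to E16.5, 1 stage a day, and at birth (P0). Each of the 5 stages had 3 libraries, and each library pooled the palates of 3 embryos. All groups share the WT genotype and no treatment is recorded, so stage is the only factor compared. Since pools of whole palate were sequenced, fewer cells of a type and less RNA per cell cannot be told apart in any of the values below.

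The palatal shelves are mesenchyme covered by a thin epithelium, which has a basal layer and a flat outer layer called periderm. The shelves grow, lift above the tongue, meet at the midline and fuse, and the epithelium between them is removed. Trp63 encodes p63, the transcription factor that sets up stratified epithelium. Grhl2 and Grhl3 encode grainyhead-like transcription factors, which act on genes for cell junctions and barrier formation. Esrp1 and Esrp2 encode RNA-binding proteins that direct epithelial splicing, including the choice of the epithelial exon of Fgfr2. Nectin1 and Nectin4 encode immunoglobulin-like adhesion receptors that bind each other across cell contacts and link to actin through afadin. Ripk4 encodes a kinase needed for keratinocyte differentiation and for a normal periderm. In people, mutations of TP63, GRHL3, NECTIN1 and RIPK4 cause syndromes that include clefts, and NECTIN4 mutations cause an ectodermal dysplasia with syndactyly.

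The libraries held 21.5 M to 69.0 M counted fragments (median 61.0 M). The 8 genes had between 71 counts (Grhl3, P0 library 3) and 5517 counts in a library, far above the 3 counts taken as the detection floor, which correspond to 0.0435 to 0.140 CPM (counts scaled to a common library size). Levels are given as CPM after TMM normalization (a scaling by the trimmed mean of log ratios between libraries), and comparisons between genes as CPM per kilobase (RPKM). Both palate mesenchyme and epithelium were present by their defining markers at every stage: Prrx1, a palate mesenchyme transcription factor, was at 375 CPM at E13.5 and 109 CPM at P0, and Cdh1, the epithelial cadherin, at 59.8 and 164 CPM. Markers of the other epithelia that a dissected palate can hold were counted as well. Of 10 nasal and ciliated epithelium markers, 10 were higher at P0 than at E13.5, their summed level going from 7.57 to 9.17 RPKM in the E13.5 libraries to 830 to 1287 RPKM in the P0 libraries. Of 7 dental epithelium markers 4 were higher, at a summed level of 10.8 to 24.4 RPKM at E13.5 and 18.1 to 77.8 RPKM at P0. The dental sum did not rise at every step: its mean was 54.3 RPKM at E16.5 and 41.4 RPKM at P0. These calls are by edgeR's quasi-likelihood test, which called 29.8% of all tested genes higher at P0 than at E13.5. The part of these epithelia in the values of the 8 genes was not tested.

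Per unit length, Nectin1 had the highest mean level over all libraries (8.80 RPKM), followed by Esrp1 (7.03 RPKM), Nectin4 (5.17 RPKM), Esrp2 (4.85 RPKM), Ripk4 (4.71 RPKM), Trp63 (4.44 RPKM), Grhl2 (3.19 RPKM) and Grhl3 (2.50 RPKM). This order was not that of every stage. At E13.5 Nectin1 (9.42 RPKM) was highest and Nectin4 (2.80 RPKM) and Grhl2 (2.36 RPKM) lowest, with Grhl3 at 3.09 RPKM and Trp63 at 3.06 RPKM. At P0 Esrp1 (9.31 RPKM) and Nectin4 (8.53 RPKM) were above Nectin1 (6.79 RPKM), and Grhl3 (2.26 RPKM) was lowest. All 8 means over the libraries were below that of the keratin Krt5, which averaged 192 RPKM and is a structural protein of the basal layer. The 8 genes differed in the course of their stage means. Nectin4 and Trp63 had their lowest mean at E13.5 and their highest at P0, with each mean in between above the one before. Grhl2, Esrp1, Esrp2 and Ripk4 also had their highest mean at P0, but their lowest at E14.5. Grhl3 had its highest mean at E13.5 and its lowest at E16.5, and Nectin1 its highest at E14.5 and its lowest at P0. When each gene's 5 stage means were put in order, the libraries of neighbouring stages in that order overlapped in 32 of 32 pairs. The order was made from the same values, so neighbours are the closest stages and overlap is likely from the start. The share of all tested genes with such overlaps was not counted, so nothing is concluded from this count.

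**Figure D1:**
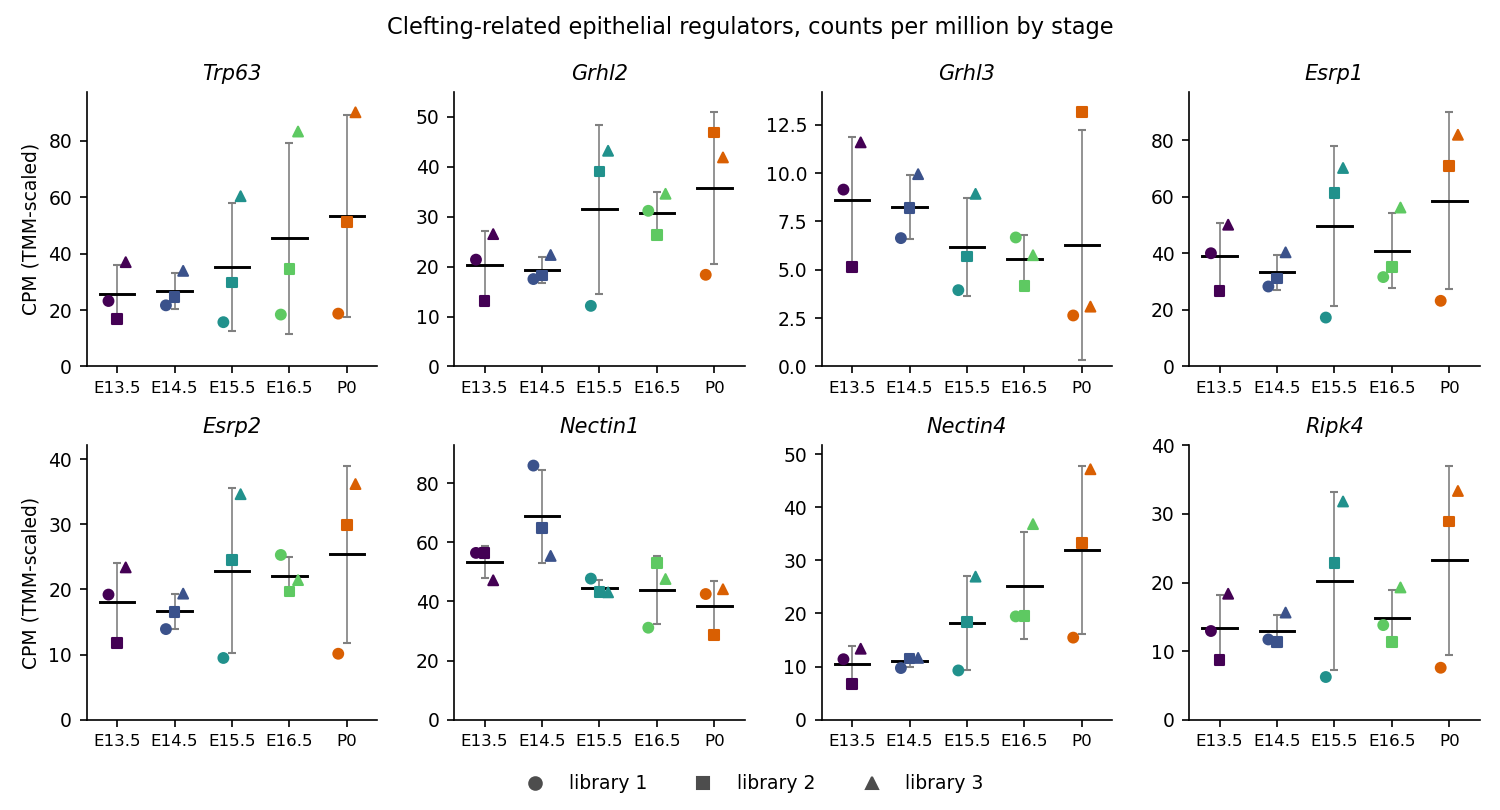
Level of each of the 8 genes in every library, in CPM scaled by TMM (linear axis from 0, a separate scale for each gene), by stage. Points are libraries, black lines the mean of 3 and grey bars the SD; Nectin4 is the only gene with every P0 library above every E13.5 library, and Nectin1 the only one with every P0 library below.

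Trp63 lies on chromosome 16 at 25683763 to 25892102 (GRCm38, plus strand; ENSMUSG00000022510.14). Its level was 23.2, 16.7 and 37.0 CPM in libraries 1, 2 and 3 of E13.5, and 21.7, 24.6 and 33.9 CPM at E14.5. It was 15.7, 29.8 and 60.4 CPM at E15.5, 18.4, 34.7 and 83.3 CPM at E16.5, and 18.7, 51.3 and 90.1 CPM at P0. Every stage had a library within or just below the E13.5 range, the highest library of each of the 3 later stages was above all early libraries, and the spread within P0 was 4.81-fold. Mean levels went from 25.6 ± 10.3 CPM (SD, n = 3) at E13.5 to 53.4 ± 35.7 CPM at P0. On the log2 scale that is a fold change of 1.06 (standard error, SE, 0.64), which did not pass edgeR's quasi-likelihood test (adjusted p = 0.173). In the GENCODE M21 annotation Gm27005 overlaps Trp63 on the same strand, so its counts are uncertain where both lie.

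Grhl2 lies on chromosome 15 at 37233036 to 37363569 (plus strand; ENSMUSG00000022286.16). It was at 21.4, 13.2 and 26.5 CPM at E13.5, 17.5, 18.2 and 22.3 CPM at E14.5, and 12.1, 39.1 and 43.2 CPM at E15.5. At E16.5 it was at 31.2, 26.3 and 34.6 CPM, and at P0 at 18.4, 46.9 and 41.9 CPM. The E14.5 and E16.5 libraries did not overlap, whereas library 1 of E15.5 and library 1 of P0 lay within or below the range of the early stages. That pair of stages was picked from the values, and the share of all tested genes without overlap there was not counted. The mean was 20.4 ± 6.73 CPM at E13.5 and 35.7 ± 15.2 CPM at P0 (SD, n = 3), a log2 fold change of 0.81 (SE 0.43) with an adjusted p of 0.126 by edgeR's quasi-likelihood test.

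Grhl3 lies on chromosome 4 at 135541888 to 135573630 (minus strand; ENSMUSG00000037188.7) and had the lowest mean of the 8 genes per unit length from E15.5 onward, but not at E13.5 or E14.5. Its levels were 9.14, 5.14 and 11.6 CPM at E13.5, 6.64, 8.20 and 9.94 CPM at E14.5, and 3.94, 5.68 and 8.92 CPM at E15.5. They were 6.67, 4.18 and 5.75 CPM at E16.5 and 2.63, 13.1 and 3.09 CPM at P0. The P0 group held both the highest and the lowest library of the 15, a 4.99-fold spread. Stage means were 8.62 ± 3.25 CPM at E13.5 and 6.29 ± 5.94 CPM at P0 (SD, n = 3), and the log2 fold change of -0.45 (SE 0.54) did not pass edgeR's quasi-likelihood test (adjusted p = 0.490). This value rested on single P0 libraries. In the same test, the log2 fold change was -1.57 (adjusted p = 0.00874) without P0 library 2. It was -0.038 (adjusted p = 0.958) without P0 library 1. These libraries were named after their effect was seen, so neither value is independent evidence of a fall or of its absence.

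Of the splicing regulators, Esrp1 lies on chromosome 4 at 11331933 to 11386783 (minus strand; ENSMUSG00000040728.15). It was at 40.1, 26.8 and 50.2 CPM at E13.5, 28.3, 31.1 and 40.4 CPM at E14.5, and 17.3, 61.3 and 70.2 CPM at E15.5. The levels were 31.6, 35.2 and 56.2 CPM at E16.5 and 23.2, 70.9 and 82.0 CPM at P0. Both E15.5 and P0 had 1 library below every E13.5 library and the other libraries above them all. Esrp2 lies on chromosome 8 at 106130319 to 106136974 (minus strand; ENSMUSG00000084128.10). Its levels were 19.2, 11.8 and 23.4 CPM at E13.5, 13.9, 16.6 and 19.4 CPM at E14.5 and 9.47, 24.5 and 34.6 CPM at E15.5, then 25.3, 19.7 and 21.4 CPM at E16.5 and 10.1, 29.9 and 36.2 CPM at P0. The same libraries, E15.5 library 1 and P0 library 1, were again the lowest of the 15. From E13.5 to P0 the log2 fold change was 0.59 (SE 0.50) for Esrp1 and 0.49 (SE 0.47) for Esrp2, and neither passed edgeR's quasi-likelihood test (adjusted p = 0.334 and 0.391). Counts were strand-specific per the file header, which bears on Esrp2, since Nfatc3 overlaps it on the other strand.

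Nectin1 lies on chromosome 9 at 43743984 to 43807461 (plus strand; ENSMUSG00000032012.8). Its levels were 56.4, 56.3 and 47.1 CPM at E13.5 and 85.9, 64.9 and 55.4 CPM at E14.5. They were 47.7, 43.1 and 43.1 CPM at E15.5, 31.1, 52.9 and 47.6 CPM at E16.5, and 42.5, 28.6 and 44.1 CPM at P0. Every E15.5 library was below every E14.5 library, and every P0 library was below every E13.5 library. The gene passed edgeR's quasi-likelihood test over the 5 stages (adjusted p = 0.0306). Its log2 fold change from E14.5 to E15.5 was -0.62 (SE 0.22), at an adjusted p of 0.0523 just outside the threshold of 0.05, and from E13.5 to P0 it was -0.47 (SE 0.22; adjusted p = 0.0821). Over the stages, Nectin1 no longer passed with library 1 or library 2 of E14.5, or library 2 of P0, left out. Nor did it pass with upper-quartile normalization, with a mean of at least 1 CPM as filter, or with the replicate number as a block.

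Nectin4 lies on chromosome 1 at 171370099 to 171388598 (plus strand; ENSMUSG00000006411.12). It was at 11.4, 6.71 and 13.4 CPM at E13.5 and 9.72, 11.5 and 11.6 CPM at E14.5. It was at 9.27, 18.5 and 26.9 CPM at E15.5, 19.4, 19.5 and 36.8 CPM at E16.5, and 15.4, 33.3 and 47.2 CPM at P0. All E16.5 and all P0 libraries were above all 6 libraries of E13.5 and E14.5. The share of all tested genes with that pattern was not counted. For P0 against E13.5 alone, 30.2% of tested genes were higher in every library. The mean rose from 10.5 ± 3.42 CPM at E13.5 to 32.0 ± 15.9 CPM at P0 (SD, n = 3), a log2 fold change of 1.61 (SE 0.45) or 3.05-fold, which passed edgeR's quasi-likelihood test (adjusted p = 0.00894). Nectin4 also passed edgeR's quasi-likelihood test over the 5 stages (adjusted p = 0.0219), except with library 1 of E14.5 left out.

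Ripk4 lies on chromosome 16 at 97741933 to 97763787 (minus strand; ENSMUSG00000005251.15). Its levels were 12.9, 8.68 and 18.4 CPM at E13.5, 11.7, 11.4 and 15.6 CPM at E14.5, and 6.22, 22.8 and 31.8 CPM at E15.5. They were 13.8, 11.3 and 19.3 CPM at E16.5 and 7.57, 28.9 and 33.4 CPM at P0. As with both Esrp genes, E15.5 library 1 and P0 library 1 lay below every E13.5 library and the other libraries of those stages above every one; the spread within E15.5 was 5.12-fold. The log2 fold change from E13.5 to P0 was 0.80 (SE 0.57; adjusted p = 0.241 by edgeR's quasi-likelihood test).

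Across the 5 stages, 2 of the 8 genes (Nectin1 and Nectin4) passed edgeR's quasi-likelihood test, in a tissue where 59.1% of the 22151 tested genes did. Between E13.5 and P0 it was 1 of 8, Nectin4, against 56.6% of all tested genes; 29.8% of all genes were called higher. No other of the 8 had an unadjusted p under 0.05, a level reached by 61.7% of all genes. Groups of these stages did not overlap for Nectin4, which was higher in every P0 library, as were 30.2% of tested genes, and for Nectin1, which was lower in every one, as were 28.9%. The median log2 fold change of the 8 genes was 0.70, beside 0.03 for all tested genes and 1.94 for 12 general epithelial markers, listed below. Of the 8 values 6 were positive, and the share of positive values over all genes was not counted. 

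Between E14.5 and E15.5, the days over which the shelves meet and fuse, edgeR's quasi-likelihood test called 0 of the 8 genes, while 26.1% of all tested genes were called. Nectin1 was the only one of the 8 with an unadjusted p under 0.05, a level that 39.7% of all genes reached, and DESeq2 called it. It was also the only one whose libraries did not overlap, being lower in every E15.5 library, as were 27.2% of tested genes. The log2 fold changes were 0.40 for Trp63, 0.70 for Grhl2, -0.42 for Grhl3, 0.58 for Esrp1, 0.46 for Esrp2, 0.73 for Nectin4 and 0.65 for Ripk4. With Nectin1 their median was 0.52, beside 0.03 for all tested genes and 1.06 for the 12 general epithelial markers. In the 3 other steps edgeR and DESeq2 each called 0 of the 8, and 0 had an unadjusted p under 0.05. Between E13.5 and E14.5 the 8 log2 fold changes ran from -0.23 to 0.37, with 0.00903% of all genes called by edgeR and 16% under the unadjusted level. Between E15.5 and E16.5 they ran from -0.46 to 0.47 (all genes 1.41% and 21.8%), and between E16.5 and P0 from -0.19 to 0.65 (0.352% and 11.7%).

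The spread between pools of a stage was shared by most of these genes. Of the 15 pairs among Trp63, Grhl2, Esrp1, Esrp2, Nectin4 and Ripk4, log2 CPM over the 15 libraries correlated with a Pearson r of 0.767 to 0.980 (median 0.874). With each gene's stage means removed, r was 0.755 to 0.984 (median 0.939), so these 6 genes moved together between pools of 1 stage as well as across stages. Esrp1 and Ripk4 were the closest pair. Grhl3 correlated with those 6 genes at a median of 0.309 over all libraries and 0.614 with stage means removed: it followed the other genes within stages more than across them. Nectin1 correlated negatively with all the other genes over the libraries, from -0.600 (Grhl2) to -0.0622 (Grhl3). These are descriptions, since the points share library and depth.

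**Figure D2:**
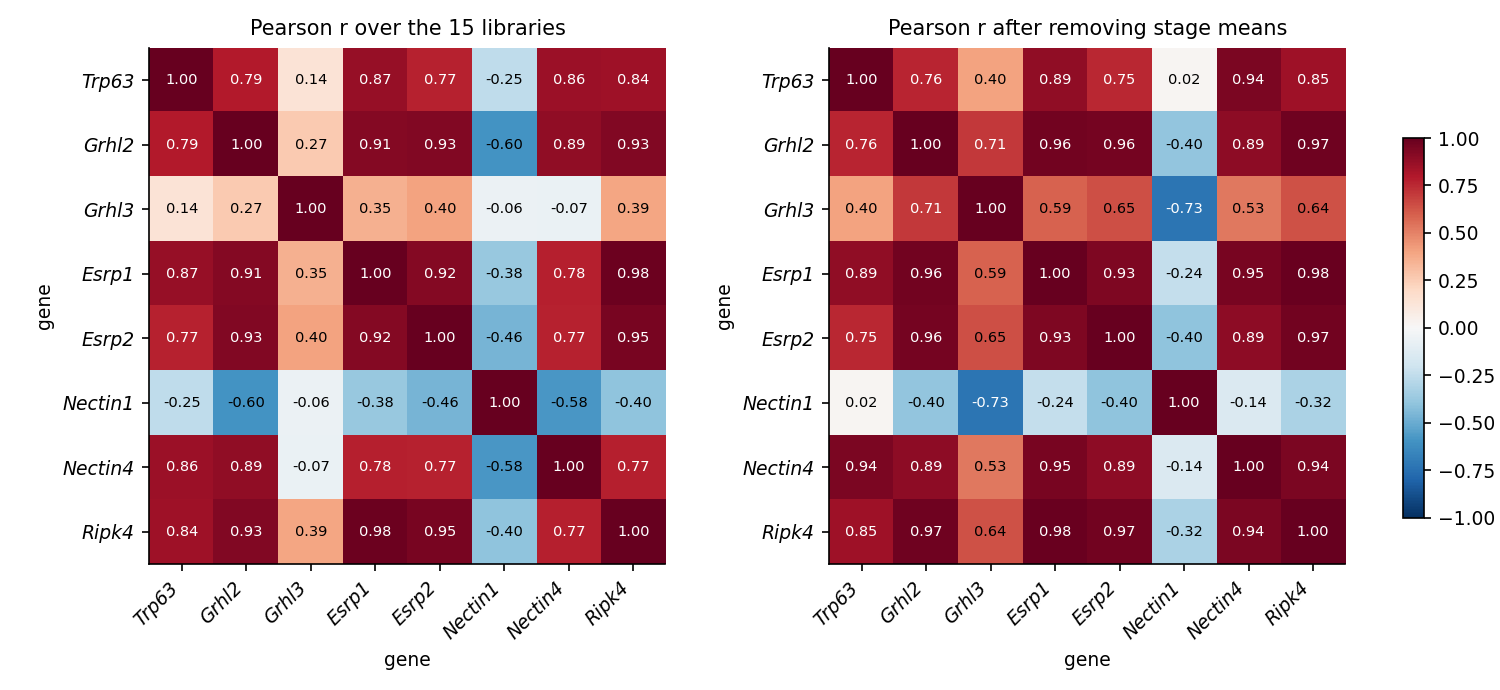
Pearson r of log2 CPM between each pair of the 8 genes, over 15 libraries (left) and with stage means removed (right), on a colour scale from -1 to 1 with r printed in each cell. Trp63, Grhl2, Esrp1, Esrp2, Nectin4 and Ripk4 form a block of r from 0.767 upwards on the left; Nectin1 stands apart in both panels.

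The pools with low or high values could be named. Averaged over the 7 genes without Nectin1, log2 CPM deviated from the stage mean by -1.04 in E15.5 library 1 and by -1.07 in P0 library 1, with 7 of 7 genes below the stage mean in each. The next lowest was E13.5 library 2, at -0.57 and again 7 of 7. The highest were E15.5 library 3 (0.77) and P0 library 2 (0.55). Nectin1 did not follow: it was 0.10 above its stage mean in E15.5 library 1 and 0.17 above it in P0 library 1.

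General epithelial markers moved with the 7 genes. The mean of 12 such markers (Epcam, Cdh1, Krt8, Krt18, Krt5, Krt14, Cldn4, Cldn7, Rab25, Spint1, Dsp and Perp) deviated by -1.13 in E15.5 library 1, -0.69 in P0 library 1 and -0.55 in E13.5 library 2. In 13 of 15 libraries it deviated in the same direction as the 7 genes, and r between the deviations was 0.948. None of the 12 was at 0, and their summed level ranged from 139 to 316 RPKM at E13.5, 214 to 285 RPKM at E14.5, 235 to 934 RPKM at E15.5, 524 to 1002 RPKM at E16.5 and 543 to 1457 RPKM at P0. The mean of 11 mesenchyme markers deviated by 0.00 in E15.5 library 1 and 0.05 in P0 library 1, and r with the 7 genes was 0.318. It was also low in other pools, at -0.25 in E13.5 library 2 and -0.44 in E14.5 library 1. Whether the share of epithelium in a pool sets these levels was not tested.

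**Figure D3:**
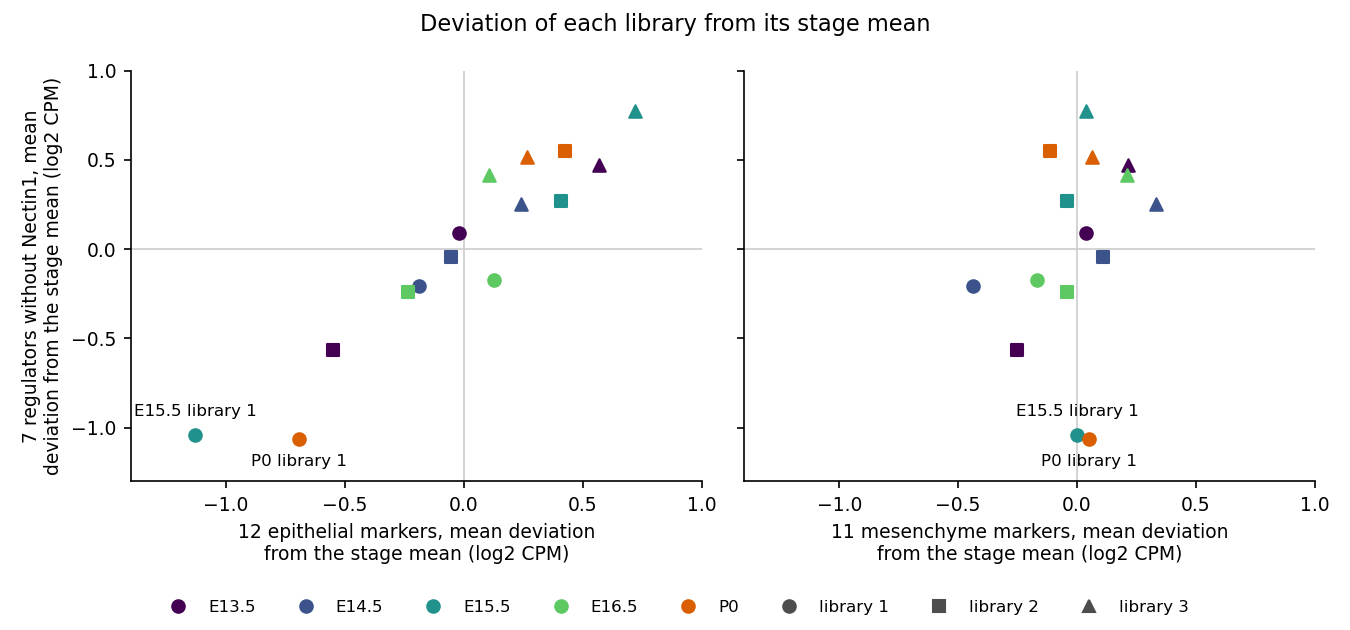
Mean deviation of the 7 genes without Nectin1 from their stage mean, in log2 CPM, against that of 12 epithelial markers (left) and 11 mesenchyme markers (right). Each point is 1 of 15 libraries, coloured by stage; E15.5 library 1 and P0 library 1 are low on the left axis of both panels, low for the epithelial markers and near 0 for the mesenchyme markers.

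The counts of called genes depended on these pools. With E15.5 library 1 and P0 library 1 both left out, edgeR's quasi-likelihood test called 6 of the 8 genes over the stages, where 60.3% of all tested genes were called. From E14.5 to E15.5 it called 5 (Grhl2, Esrp1, Esrp2, Nectin4 and Ripk4; all genes 26.9%), and from E13.5 to P0 the same 5 (all genes 51.0%). Among the latter, Grhl2 had a log2 fold change of 1.11 (adjusted p = 0.00363), Ripk4 1.21 (0.00831), Esrp1 0.96 (0.0168), Esrp2 0.86 (0.0219) and Nectin4 1.93 (0.00112), while Trp63 at 1.45 (0.0505), Nectin1 at -0.56 (0.0925) and Grhl3 at -0.091 (0.893) did not pass. These pools were picked because they were low for these genes, so the counts without them show how much rests on the pools and are not independent evidence of a rise. Left out singly, P0 library 1 brought Grhl2 past the threshold between E13.5 and P0 (adjusted p = 0.0390), and E15.5 library 1 did so as well (0.0498).

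Setting related genes against each other within a library removes library size. The ratio of Grhl2 to Grhl3, per kilobase, was 0.757, 0.829 and 0.741 at E13.5 and 0.854, 0.718 and 0.727 at E14.5. Per kilobase, Grhl3 was thus the higher of the pair in all 6 early libraries. That order rests on the annotated lengths, 8613 bases for Grhl2 and 2789 bases for Grhl3. Before length scaling, Grhl2 had more counts than Grhl3 in every library. The ratio per kilobase was 0.995, 2.23 and 1.57 at E15.5, 1.51, 2.03 and 1.94 at E16.5, and 2.25, 1.15 and 4.36 at P0. The 9 later libraries were all above the 6 early ones, and per kilobase Grhl2 exceeded Grhl3 in 8 of the 9. This split into early and later stages was picked from the values, and the share of gene pairs that separate this way was not counted. The ratio differed over the stages in an exact permutation test over all 1401400 divisions of the 15 libraries into groups of 3 (p = 0.0115, adjusted over 3 ratios 0.0236). At P0 it was 2.90-fold that at E13.5, a log2 difference of 1.53.

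The ratio of the nectins differed over the stages as well. Per kilobase, Nectin1 stood at 3.28, 5.56 and 2.34 times Nectin4 at E13.5 and at 5.85, 3.73 and 3.15 times at E14.5. The ratio was 3.41, 1.55 and 1.06 at E15.5, 1.06, 1.80 and 0.856 at E16.5, and 1.82, 0.569 and 0.620 at P0. E13.5 and P0 libraries did not overlap, although E15.5 library 1 lay within the early range. The share of gene pairs whose ratio did not overlap between these stages was not counted. The stages differed in the exact permutation test (p = 0.0158, adjusted 0.0236), and the log2 ratio differed by -2.02 between P0 and E13.5, a ratio 0.247 times that at E13.5.

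The ratio of Esrp1 to Esrp2, in contrast, had stage means between 1.30 and 1.59, with all libraries from 0.860 (E16.5 library 1) to 1.81 (E16.5 library 3). Stage means of 1.49 ± 0.07 at E13.5 and 1.59 ± 0.04 at P0 (SD, n = 3) were 0.09 apart on the log2 scale. The exact permutation test did not separate the stages (p = 0.600, adjusted 0.600). With 1 library left out at a time, the same exact permutation test gave unadjusted p from 0.00899 to 0.767. The lowest came without E16.5 library 3, which held the highest ratio of all libraries and was named after its effect was seen. The other E16.5 libraries were at 0.860 and 1.23, below every library of E13.5, E14.5 and P0.

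**Figure D4:**
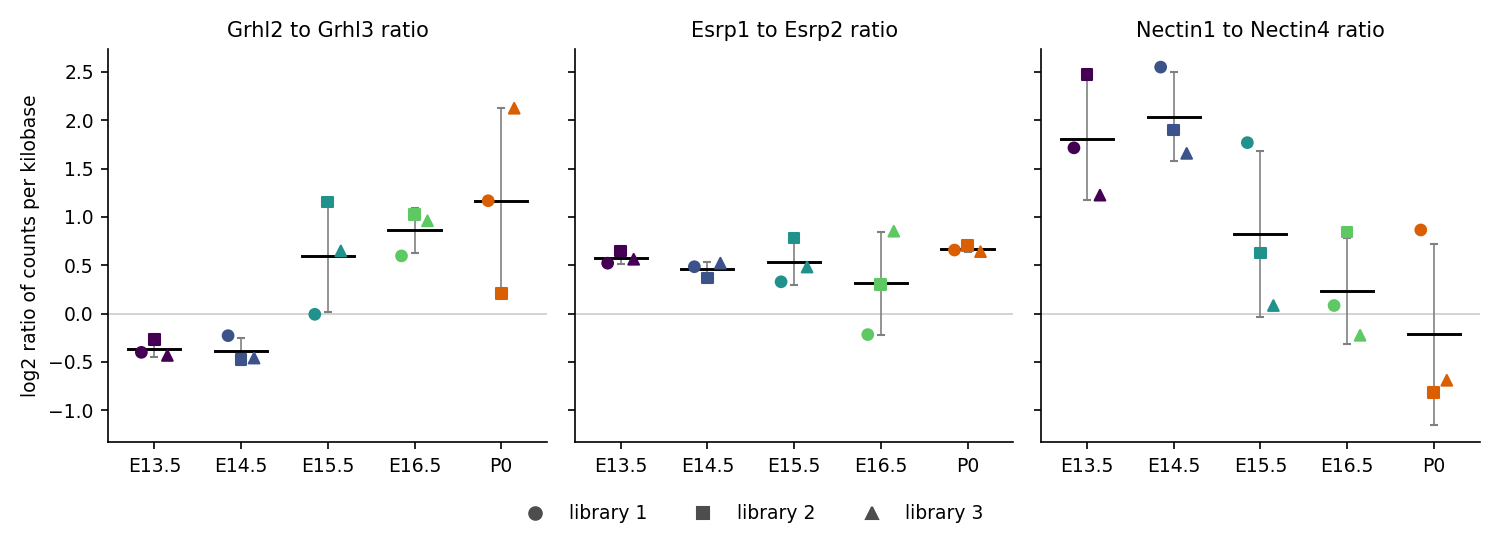
Log2 ratio of counts per kilobase for Grhl2 to Grhl3, Esrp1 to Esrp2, and Nectin1 to Nectin4 in each library by stage, with the mean (black line) and SD (grey bar) of 3 libraries. A value of 0 marks equal counts per kilobase of annotated length. The 6 early Grhl2 to Grhl3 points lie below 0 and below all 9 later ones, the Esrp points spread most at E16.5, and the Nectin points at P0 lie below those at E13.5.

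A rise in CPM can also be set beside the rise of the epithelial markers themselves. Of the 12 general markers, 9 were called higher at P0 than at E13.5 by edgeR's quasi-likelihood test, with a median log2 fold change of 1.94. The share of all tested genes called higher was 29.8%, and the marker counts here are to be read against it. All 9 basal markers were higher (median 2.04), as were 7 of 8 periderm and medial edge markers (2.35) and 7 of 11 tested markers of differentiated stratified epithelium (4.42). Krt13 and Krt4, keratins of mucosal stratified epithelium, had log2 fold changes of 11.31 and 10.17, from levels under 1 CPM. Nectin4, at 1.61, was the only one of the 8 genes above 1.06.

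Relative to the mean of the 12 markers, all 8 genes were lower at P0 than at E13.5. The log2 difference was -0.36 for Nectin4, -1.02 for Trp63, -1.12 for Grhl2, -1.27 for Ripk4, -1.44 for Esrp1, -1.53 for Esrp2, -2.37 for Nectin1 and -2.65 for Grhl3. Against Epcam and Cdh1 alone the order is the same, since all genes shift by the same amount, and the differences were smaller, from -0.28 for Trp63 to -1.92 for Grhl3, and there Nectin4 was higher, by 0.37. These values carry no test, and their size depends on which markers stand for epithelium. The direction did so for Nectin4 only. Against the 8 markers without keratins Nectin4 was at -0.10, and the other genes ran from -0.76 for Trp63 to -2.40 for Grhl3. The 12 include the keratins Krt8, Krt18, Krt5 and Krt14, each called higher at P0 than at E13.5 by edgeR's quasi-likelihood test. Krt5, Krt14 and Perp are p63 targets, while Cdh1, Epcam, Cldn4 and Rab25 are grainyhead targets.

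Taking the marker mean off also changed the spread between pools. For Grhl2 the SD within stages was 0.62 on the log2 CPM scale and 0.11 relative to the markers, the smallest of the 8, and for Esrp2 it was 0.67 and 0.22. It went from 0.74 to 0.29 for Esrp1, from 0.83 to 0.32 for Ripk4 and from 0.61 to 0.32 for Nectin4. The reduction was smaller for Grhl3 (0.71 to 0.50) and Trp63 (0.88 to 0.61). For Nectin1 the SD was larger relative to the markers, 0.77 against 0.29, and its r with Cdh1 over the 15 libraries was -0.770. Grhl3 followed the markers only in part: its r over the 15 libraries was 0.016 with Cdh1 and -0.032 with the marker mean. For the other 6 genes r with the marker mean was 0.698 (Trp63) to 0.927 (Nectin4), and for Nectin1 it was -0.732.

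**Figure D5:**
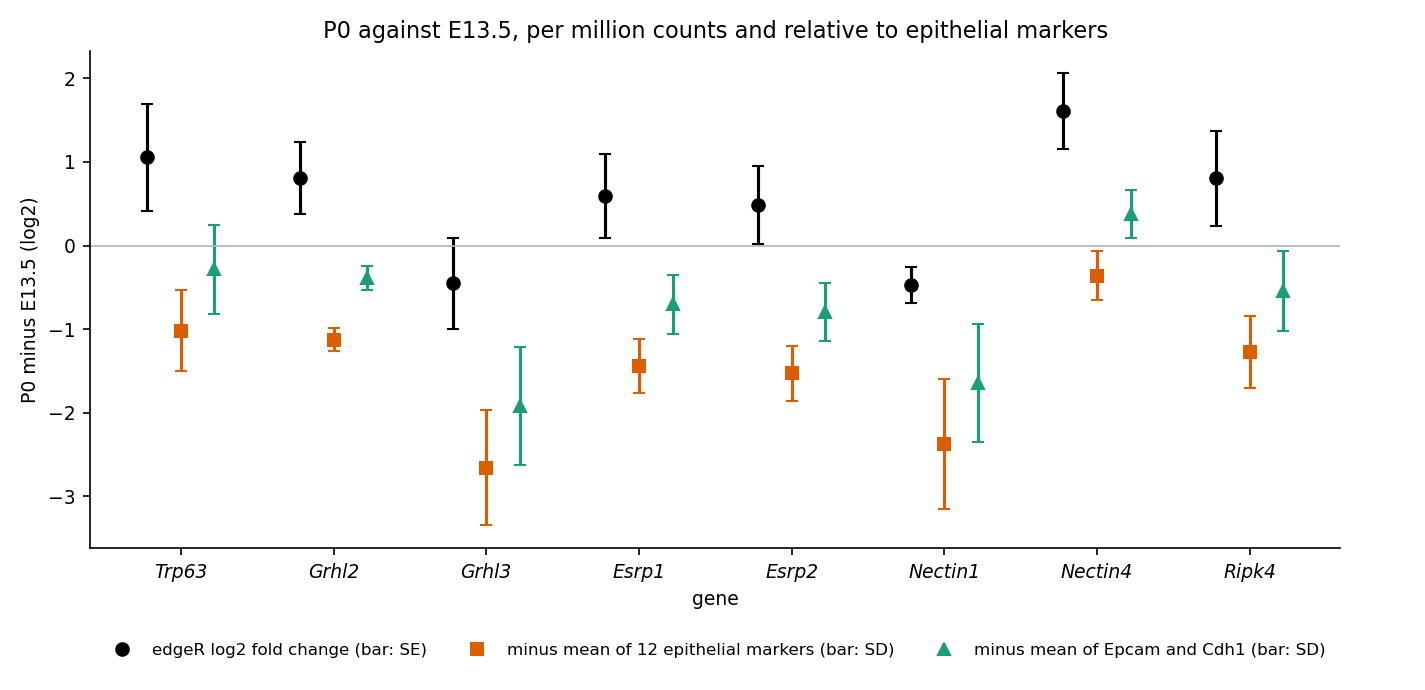
Change of each gene from E13.5 to P0 on the log2 scale: edgeR log2 fold change with its SE (black circles), and the difference after subtracting the mean of 12 epithelial markers (orange squares) or of Epcam and Cdh1 (green triangles), with the pooled within-stage SD. All orange squares lie below 0, from -0.36 for Nectin4 to -2.65 for Grhl3; among the triangles Nectin4 lies above 0.

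The genes whose log2 CPM followed each of the 8 most closely, among 16476 genes with a mean of at least 1 CPM, are described here by gene. Nectin4 followed Sfn (r = 0.982), the 14-3-3 sigma gene, and Pkp3 (0.976), which encodes a desmosomal plakophilin. Trp63 was most like Dsg2 (0.945) and Dsp (0.929), both of desmosomes, and Large2 (0.907). Grhl2 was most like Cdcp1 (0.965), Grb7 (0.958) and Kdf1 (0.954). Esrp1 and Ripk4 shared their 3 nearest genes, Cers3, Fzd6 and Dsg2, with r from 0.926 to 0.952, and Esrp2 was nearest to Bnipl (0.917), Crb3 (0.914) and Mpzl2 (0.904). For Nectin1 they were Btbd11 (0.970), Ppp1r3f (0.956) and Fads2 (0.956), and for Grhl3 Pex13 (0.874), Gm8116 (0.850) and Gnpnat1 (0.833), none of them on the epithelial marker lists used here. These are descriptions over 15 libraries that share depth and stage, and by Spearman's rank correlation 13 of these 24 places kept the same gene.

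Genes that act with these regulators are given from lists by role, P0 against E13.5, by edgeR's quasi-likelihood test, by which 29.8% of all tested genes were higher and 56.6% were called in either direction. The counts that follow are to be read against those shares. Of 20 p63 target genes, 12 were higher and 2 lower (median log2 fold change 0.88), among them Krt5 at 3.10, Perp, a desmosome-associated protein, at 2.50, and Sfn at 2.35. Of 10 grainyhead target genes 5 were higher, including the junction genes Cldn3 (2.62) and Cdh1 (1.45), while Epcam (0.85, adjusted p = 0.134) and Cldn4 (1.49, adjusted p = 0.0659) did not pass. Of 14 other genes linked to epithelial clefting, 5 were higher and 2 lower (median 0.38): Klf4, a differentiation factor, was at 1.41 and Sfn as above, and Tgfb3, the growth factor of the medial edge, was higher between E14.5 and E15.5 (0.93, adjusted p = 0.0456) and not called over the whole span (0.46, adjusted p = 0.219). Of 12 matched paralogues and partners, Grhl1 was higher and 4 were lower, among them Trp53 (-0.83), the splicing factors Rbfox2 (-0.89) and Ptbp1 (-0.87); Nectin2 at -0.36 (adjusted p = 0.108) did not pass. Of 11 mesenchyme markers 3 were higher and 7 lower, with Prrx1 at -1.78 and Vim at 0.87.

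Promoter sequence was matched by symbol in RefSeq (GRCm38.p6) for 2 of the 8 genes, Grhl3 and Nectin4, and is shown because each belongs to a pair whose ratio differed over the stages. Each is 5′ to 3′ on the gene's strand and ends before the annotated start of the gene; capitals mark the E-box CACCTG. The Grhl3 stretch is chr4:135573633-135573882 (250 bases, minus strand, 56.0% G or C), and the Nectin4 stretch is chr1:171369923-171370098 (176 bases, plus strand, 52.3% G or C).
Grhl3: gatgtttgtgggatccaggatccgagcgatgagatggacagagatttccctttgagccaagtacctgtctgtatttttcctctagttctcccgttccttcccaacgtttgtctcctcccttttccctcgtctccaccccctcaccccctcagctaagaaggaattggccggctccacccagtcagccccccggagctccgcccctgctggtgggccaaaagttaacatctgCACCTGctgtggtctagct
Nectin4: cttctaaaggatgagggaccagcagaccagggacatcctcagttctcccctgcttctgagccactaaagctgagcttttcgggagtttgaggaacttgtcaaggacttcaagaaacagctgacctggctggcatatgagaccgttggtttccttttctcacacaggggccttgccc
On both strands, these stretches were searched for the grainyhead site AACCGGTT, the same site with 1 free base (AACCNGTT), the E-box CACCTG and the p53-family decamer. The Grhl3 stretch held 1 E-box, which begins 19 bases before its 3′ end, and no other match was found in either. Of 32851 RefSeq promoter stretches of 250 bases, 17.2% held the E-box, 0.116% and 1.79% the grainyhead sites (the second search includes the first), and 7.13% the p53-family decamer. A match is a description of letters, and its absence here says nothing about binding by p63 or grainyhead factors elsewhere.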

How the data were processed

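The deposited table holds counts per gene, which the authors made with featureCounts 2.0.1, per the file headers, as read pairs on the reverse strand of GENCODE M18. HISAT2 2.2.1, cutadapt 3.4, SAMtools 1.12, FastQC 0.11.9 and Bowtie2 are named in the submitters' processing notes, with mm10; their settings are not given in the sources used here. Symbols came from GENCODE M21 for 54079 genes, and 97.7% of these had the same position in it.

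Groups came from the labels. Counts were filtered with filterByExpr by stage (22151 genes), scaled by TMM, and modelled over all 15 libraries in edgeR 4.0.16 under R 4.3.3; p-values were adjusted by Benjamini-Hochberg over all tested genes, with a threshold of 0.05. The common biological coefficient of variation was 0.332. Log2 CPM used a prior count of 2, and ratios a pseudocount of 0.5 counts. No label says that libraries come from separate litters, so p-values measure the spread between these pools. Intervals for single libraries are not given; the floor of 3 counts covers counting error only. All 8 genes were described, with up to 4 genes of highest mean RPKM from each list, Epcam, Cdh1, Prrx1, Vim and the 3 most similar genes, of which 1 is not reported here; Grhl1 was chosen after its values were seen. The 8 genes and the lists were chosen with earlier results of these data known. Qki was not matched by symbol, and Ivl did not pass the filter. Alternatives were DESeq2 1.42.0, other scalings and filters, fewer libraries and the replicate number as a block. The procedure was tested on simulated data.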

Additional observations from a re-analysis of the deposited data

How the results depend on the processing

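The rise of Nectin4 from E13.5 to P0 passed edgeR's quasi-likelihood test, or DESeq2, in 23 of 23 alternatives, with adjusted p from 0.000989 to 0.0421. The fall of Nectin1 from E14.5 to E15.5 passed in 5 of 23 (adjusted p from 0.0321 to 0.227). Over the 5 stages 1 gene was called, Nectin4, with upper-quartile normalization, with a mean of at least 1 CPM as filter, or with the replicate block. Of all genes, 57.9%, 64.7% and 59.4% were called in these settings. From E14.5 to E15.5, 1 gene was called, Nectin1, with DESeq2 (all genes 32.5%) or with only the libraries of the contrast (32.3%). With the 2 low pools left out, a choice made after seeing the data, the counts were 6 over the stages, 5 from E14.5 to E15.5 and 5 from E13.5 to P0. The shares of all genes were then 60.3%, 26.9% and 51.0%. Leaving out 1 library at a time gave 0 to 3 genes over the stages (the lowest without E14.5 replicate 1; 1 gene, Nectin4, when E14.5 replicate 2 was dropped), 0 to 1 from E14.5 to E15.5 and 1 to 2 from E13.5 to P0. The second gene of that last contrast was Grhl2 without E15.5 replicate 1 (all genes 55.4%) or P0 replicate 1 (50.1%). It was Nectin1 without E16.5 replicate 1 (56.9%) and Grhl3 without P0 replicate 2 (50.6%). With all libraries the share was 56.6%. Over the stages, calls among all genes also fell, from 59.1% to 50.2% without E14.5 replicate 1 and to 50.4% without E14.5 replicate 2. The log2 ratio difference of Grhl2 to Grhl3 was 1.06 to 2.01, that of Nectin1 to Nectin4 -2.56 to -1.68, and that of Esrp1 to Esrp2 0.063 to 0.13.

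No label says that a replicate number is shared between stages. Over 30 pairs of same-numbered libraries of different stages the correlation of deviations was -0.303 to 0.548 (median -0.00166), and 9 exceeded 0.1. The median over the 60 other pairs was -0.0223. Such correlations cannot show whether same-numbered libraries shared a litter. With the replicate block the exact permutation p was 0.0289 for Grhl2 to Grhl3, 0.00903 for Nectin1 to Nectin4 and 0.510 for Esrp1 to Esrp2, and the block turned Grhl2 (0.079) and Esrp2 (0.12) from lower to higher between E15.5 and E16.5.

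Between E13.5 and P0, 0 of 184 log2 fold changes (8 genes, 23 alternatives each) turned sign. Upper-quartile normalization moved the median of all genes from 0.024 to -0.050 between E13.5 and E14.5, and with it Trp63 from 0.059 to -0.016 and Nectin4 to -0.013. Between E14.5 and E15.5 it moved that median from 0.030 to 0.16. Without both low pools Nectin1 was at 0.028 between E15.5 and E16.5. Leaving out single libraries between E13.5 and E14.5, Trp63 was -0.17 to 0.42, Grhl2 -0.30 to 0.16, Grhl3 -0.32 to 0.21, Esrp2 -0.35 to 0.10, Nectin4 -0.17 to 0.28 and Ripk4 -0.27 to 0.26. Between E14.5 and E15.5 Trp63 was -0.24 to 0.74. Between E15.5 and E16.5 Trp63 was -0.41 to 1.00, Grhl2 -0.42 to 0.26, Grhl3 -0.40 to 0.20, Esrp1 -0.68 to 0.060, Esrp2 -0.42 to 0.38, Nectin1 -0.18 to 0.16 and Ripk4 -0.88 to 0.027. Between E16.5 and P0 Trp63 was -0.37 to 1.00, Grhl2 -0.044 to 0.53, Grhl3 -0.97 to 0.56, Esrp2 -0.14 to 0.58 and Nectin4 -0.051 to 0.71. The cause was not tested. Each stage had 3 pools, with spreads up to 5.12-fold. With all libraries, Trp63, Grhl2, Grhl3, Esrp1, Esrp2 and Ripk4 did not pass edgeR's quasi-likelihood test over the 5 stages or between E13.5 and P0. That does not show that changes in them were absent.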
